A study of Mus musculus with 8 samples.

Results

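Txnrd1, Txnrd2 and Txnrd3 encode the thioredoxin reductases of the cytosol, of mitochondria and of testis. They were found by gene symbol, and all 3 had a line among the 7500 genes of a ribosome profiling table of mouse liver. Ribosome profiling sequences the mRNA fragments that ribosomes shield from nuclease (footprints), so the number of footprints on a coding sequence reflects how many ribosomes were on it. The livers were from male wild-type FVB/N mice, placed at weaning on a Se-deficient torula yeast diet to which 0 ppm (0 Se) or 0.1 ppm Se as sodium selenite (0.1 Se) was added, and kept on it for 6 weeks. Each diet was represented by 2 mice, each with 2 libraries, which gives 4 mice and 8 libraries in all. The labels give no difference between the groups other than the diet.

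The values below are the authors' log2 CPM (the log2 of counts scaled to a common library size), with 1 value per gene. It was taken as the average over all libraries of both diets, since its label names no sample. No value therefore belongs to one diet or one mouse, and no SD or n accompanies a level. How deeply each library was sequenced is unknown. The diets were not compared, because values per library were not analysed here. Whether neighbouring genes in the order of levels differ by more than the spread between mice was not tested. Since a longer coding sequence collects more footprints, levels were compared between genes as log2 CPM per kilobase.

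Thioredoxin reductases are flavoproteins that pass electrons from NADPH to thioredoxin, which in turn reduces peroxiredoxins, ribonucleotide reductase and methionine sulfoxide reductases. Their catalytic selenocysteine (Sec) is the residue before the last, and it is encoded by a UGA codon that acts as a stop codon unless the Sec-tRNA decodes it. A thioredoxin reductase that ends at this UGA lacks the Sec and, with it, most of its activity toward thioredoxin. Txnrd3 carries an additional glutaredoxin-like domain at its N-terminus and is best known from male germ cells.

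The ends of the 3 coding sequences are shown because they decide what the footprint values can measure. Each line gives the last 24 bases up to and including the stop codon, from the GENCODE transcripts of the mm9 build on the plus strand, with the UGA (written TGA) in capitals. The end of Vimp (annotated as H47), another selenoprotein whose UGA lies next to the stop codon, is added for comparison.
Txnrd1, chr10:82358767-82358790: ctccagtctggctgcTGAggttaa
Txnrd2, chr16:18477850-18477873: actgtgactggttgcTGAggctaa
Txnrd3, chr6:89624768-89624791: actcagaaaggctgcTGAggctag
Vimp, chr7:73233715-73233738: ccatcatctggcggcTGAaactaa

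The reductase ends were alike around the UGA and differed further ahead of it. Of the last 15 bases, which include those directly ahead of the UGA, 12 were identical in Txnrd1, Txnrd2 and Txnrd3. Of the 9 bases before them, 1 was. In each gene a single codon separated the UGA from the stop codon. Over the whole coding sequence, 64.3% of aligned bases were identical between Txnrd1 and Txnrd3, 60.6% between Txnrd1 and Txnrd2 and 61.3% between Txnrd2 and Txnrd3. Glutathione reductase (Gsr), a related flavoprotein without Sec, shared 55.5% with Txnrd1, 56.1% with Txnrd2 and 57.1% with Txnrd3. No unrelated gene was aligned, so how far these shares exceed those of unrelated sequences was not tested.

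The genes lie on different chromosomes, all on the plus strand of mm9. Txnrd1 spans positions 82296696 to 82360469 of chromosome 10, and its UGA (82358782 to 82358784) is in exon 15 of 15 of its longest isoform. Txnrd2 spans 18426510 to 18479166 of chromosome 16, with the UGA (18477865 to 18477867) in exon 17 of 18 of its longest isoform. Txnrd3 spans 89593982 to 89625523 of chromosome 6, with the UGA (89624783 to 89624785) in exon 16 of 16 of its longest isoform. Each UGA is part of the coding sequence.

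By the annotated isoforms, no codon after the UGA was in the counted part of a thioredoxin reductase. By the study's methods, the first 15 and the last 3 codons of each coding sequence were left out of counting. The UGA is codon 612 of 614 in Txnrd1, codon 523 of 525 in Txnrd2 and codon 614 of 616 in Txnrd3, so in these isoforms the 3 codons left out at the end are the UGA, the codon behind it and the stop codon. The length counted by the authors matched the annotated isoform for Txnrd1 alone, and was 9 bases longer for Txnrd2 and 111 bases longer for Txnrd3, at a place that the table does not give. On an end as annotated, the values of these genes record ribosomes that approached the UGA, and hold no measure of how many passed it.

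This set them apart from most selenoproteins of the table. Of 24 selenoprotein genes, 14 had a line, and 5 of the 14 had no counted codon behind the UGA, namely Txnrd1, Txnrd2, Txnrd3, Vimp and Selk. In the other 9 genes, between 19 codons (Msrb1, a methionine sulfoxide reductase) and 387 codons (Sephs2, which makes the Se donor for Sec synthesis) were counted after the first UGA. In Gpx1, the cytosolic glutathione peroxidase, the UGA is codon 47 of 202, and in Sepp1, the plasma Se carrier, the first of 10 UGA codons is codon 59 of 381. A level of Gpx1 or Sepp1 therefore mixes ribosomes before and after the UGA, whereas that of a thioredoxin reductase, with its end as annotated, does not.

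**Figure D1:**
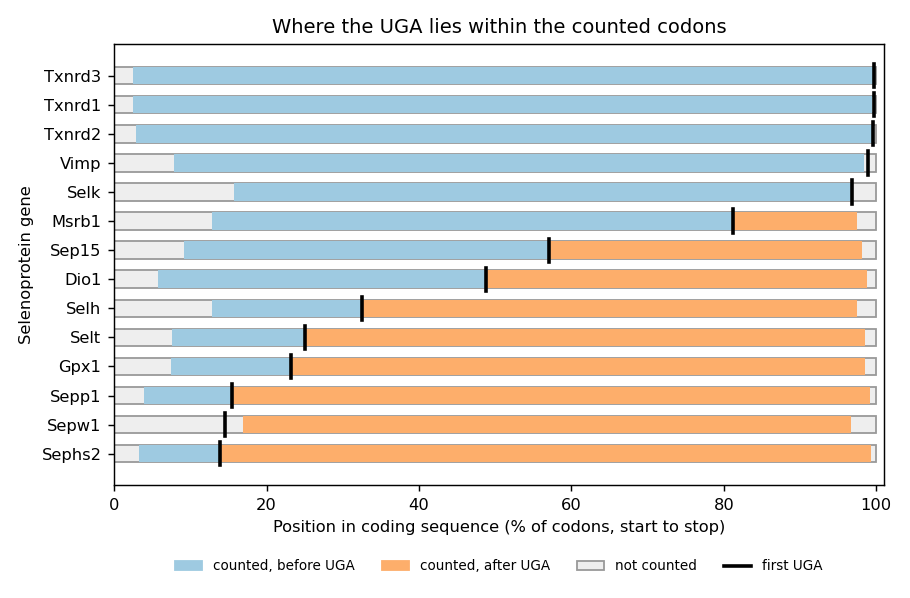
Position of the first UGA (black mark) in the coding sequence of the 14 selenoprotein genes with a line, in percent of codons from start to stop. Blue marks counted codons before the UGA and orange counted codons after it. Grey marks the first 15 and last 3 codons, left out by the study's methods (the UGA of Sepw1 lies among the first 15). Txnrd1, Txnrd2, Txnrd3, Vimp and Selk have no orange part.

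Txnrd1 had the most footprints of the 3 genes. Its level was 6.02 log2 CPM, or 65.1 CPM, and 5.19 log2 CPM per kilobase. Txnrd2 had 3.84 log2 CPM, or 14.3 CPM, and 3.23 log2 CPM per kilobase. Txnrd3 was lowest, with 2.77 log2 CPM, or 6.80 CPM, and 1.84 log2 CPM per kilobase. In CPM per kilobase, Txnrd1 was thus 3.90 times Txnrd2 and 10.2 times Txnrd3, and Txnrd2 was 2.62 times Txnrd3. Of the summed CPM of the 3 genes, not divided by length, 75.5% was that of Txnrd1, 16.6% that of Txnrd2 and 7.89% that of Txnrd3. In CPM per kilobase these shares were 73.8%, 18.9% and 7.23%.

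Against the whole table, only Txnrd1 was above the median gene, which had 3.50 log2 CPM per kilobase. On that scale Txnrd1 ranked 1916th of the 7500 genes, Txnrd2 4082nd and Txnrd3 5738th. In CPM per kilobase, Txnrd1 was 3.24 times the median gene, Txnrd2 0.831 times and Txnrd3 0.317 times. Some abundant liver genes, such as Gapdh and Cps1, had no line, so these ranks apply to listed genes.

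**Figure D2:**
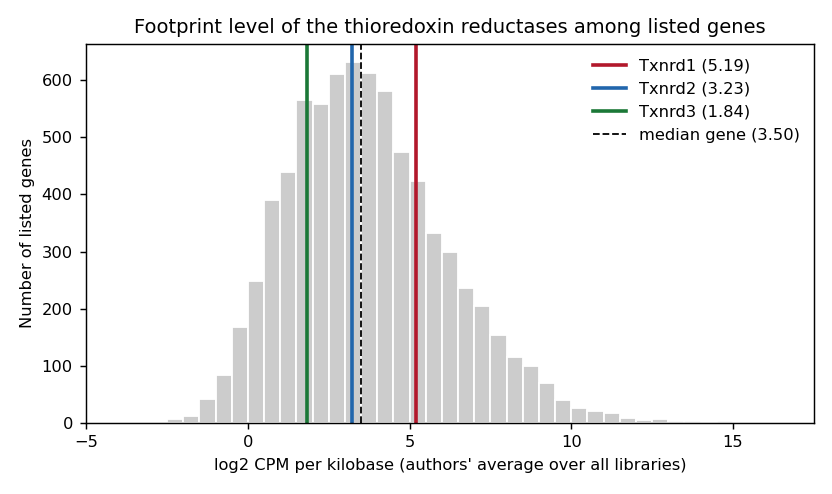
Distribution of log2 CPM per kilobase over the 7500 listed genes (grey bars, number of genes per step of 0.5), with the levels of the 3 thioredoxin reductases as coloured lines and the median gene as a dashed line. Txnrd1 (5.19) lies above the median of 3.50, Txnrd2 (3.23) just below it and Txnrd3 (1.84) in the lower part.

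The level of Txnrd3 was compared with markers of the cells in which it is best known. None of 7 male germ cell genes (Prm1, Prm2, Tnp1, Tnp2, Odf1, Ldhc and Pgk2) had a line. A missing line does not show a lack of footprints, since the hepatocyte marker Cps1 had none either. Hepatocyte markers were high, with 5 of 6 listed at 10.84 to 15.66 log2 CPM per kilobase, from Tat (61st of all genes) to Alb (2nd). Markers of other liver cells were also listed, with 4 of 5 for Kupffer cells (2.30 to 7.42 log2 CPM per kilobase), 4 of 4 for endothelium (2.27 to 4.46), 4 of 4 for stellate cells (1.34 to 3.77) and 3 of 4 for cholangiocytes (0.33 to 1.51). The level of Txnrd3 was below all 4 listed Kupffer cell and all 4 endothelial markers and above all 3 cholangiocyte markers, while 3 of the 4 stellate cell markers were above it and Des (1.34) was below. Which cells its footprints came from was not tested, and in whole liver fewer cells of a type and less RNA per cell cannot be told apart.

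The thioredoxin and glutaredoxin genes were mostly above the reductases. Txn1, the cytosolic thioredoxin that Txnrd1 reduces, had 8.63 log2 CPM per kilobase, and its CPM per kilobase was 10.9 times that of Txnrd1. Txn2, the mitochondrial thioredoxin and substrate of Txnrd2, had no line. Of the 9 thioredoxin and glutaredoxin genes, 6 had a line, and 5 of these were above all 3 reductases. They were Txn1, Txnl1, Glrx, Glrx5 and Txnip (a thioredoxin-binding protein), at 6.54 to 8.63 log2 CPM per kilobase. Nucleoredoxin (Nxn) was below all 3, at 1.05.

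Peroxiredoxins remove peroxides, mostly with electrons from thioredoxin. Their list of 7 genes, which includes their repair enzyme sulfiredoxin (Srxn1), had a median of 7.98 log2 CPM per kilobase. Prdx1, a cytosolic peroxiredoxin, was highest at 11.51 log2 CPM per kilobase, or 79.8 times Txnrd1 in CPM per kilobase. The mitochondrial Prdx3 had 6.83 log2 CPM per kilobase, or 12.1 times Txnrd2 in CPM per kilobase. Srxn1, at 3.78 log2 CPM per kilobase, was the only gene of this list below Txnrd1.

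The other enzymes that draw on thioredoxin were split. The methionine sulfoxide reductases Msrb1 and Msra had 9.92 and 8.35 log2 CPM per kilobase. The ribonucleotide reductase subunits Rrm1 and Rrm2, which make DNA precursors, had 3.20 each, beside Txnrd2, and their relative Rrm2b had 0.55. Txnrd2 was 0.03 above Rrm1 in log2 CPM per kilobase.

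Listed genes of the glutathione arm, which runs in parallel to thioredoxin, were also above the reductases. Their median was 7.91 log2 CPM per kilobase, against 7.98 for the peroxiredoxin list and 7.03 for the thioredoxin and glutaredoxin genes. All 5 listed genes of 6 were above Txnrd1, from Gsr, the glutathione counterpart of the thioredoxin reductases, at 5.71 log2 CPM per kilobase to Gpx1 at 10.15. Gsr was the nearest gene above Txnrd1 among the 40 listed pathway genes, at 1.43 times Txnrd1 and 5.59 times Txnrd2 in CPM per kilobase. The subunits of glutamate-cysteine ligase, Gclc and Gclm, had 7.91 and 8.72 log2 CPM per kilobase, and glutathione synthetase (Gss) had 6.45.

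Among enzymes that supply NADPH, 3 of 6 had a line. The isocitrate dehydrogenase Idh1 had 9.45 log2 CPM per kilobase and the phosphogluconate dehydrogenase Pgd 6.36, both above Txnrd1. G6pdx, the first enzyme of the pentose phosphate pathway, had 2.22 and was the nearest above Txnrd3 among the 40 listed pathway genes. Txnrd1 is a known target of the transcription factor NRF2. Of the 4 genes listed for that pathway only its target Nqo1 had a line, at 2.72 log2 CPM per kilobase, between Txnrd2 and Txnrd3.

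**Figure D3:**
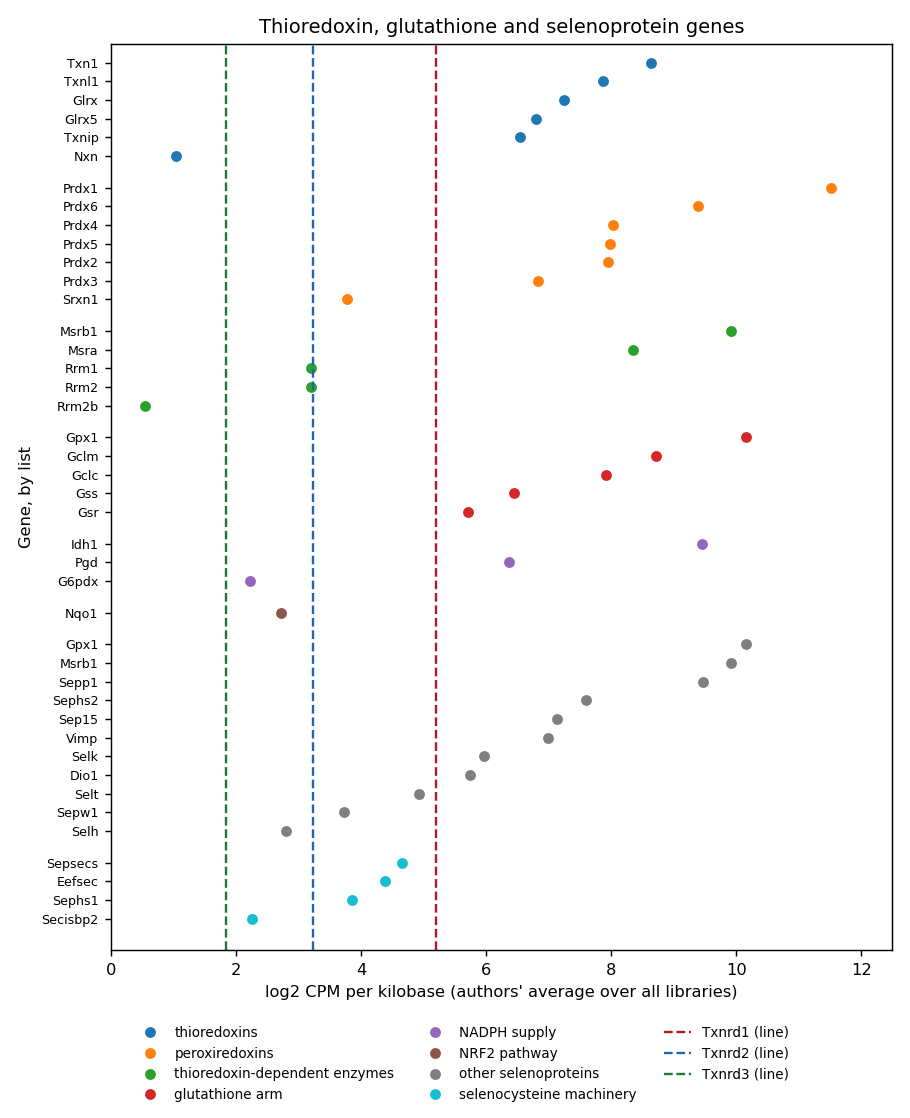
Level of each listed gene of the thioredoxin, glutathione, NADPH and Se pathways in log2 CPM per kilobase (points, coloured by list; Gpx1 and Msrb1 are in 2 lists), with dashed lines at the 3 thioredoxin reductases. Of the 40 genes, 26 lie to the right of Txnrd1, 32 to the right of Txnrd2 and 38 to the right of Txnrd3.

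Among the 14 listed selenoprotein genes, Txnrd1 ranked 9th, Txnrd2 12th and Txnrd3 14th in log2 CPM per kilobase. The first were Gpx1 (10.15), Msrb1 (9.92) and Sepp1 (9.48). Directly above Txnrd1 was Dio1, the thyroid hormone deiodinase of liver, at 5.74, and directly below it Selt, listed under 2810407C02Rik, at 4.93. Sepw1 (3.73) and Selh (2.81), listed under 2700094K13Rik, stood on either side of Txnrd2. This order sets unlike parts of coding sequences side by side. All counted codons of Sepw1 lie after its UGA, while those of Txnrd2, with its end as annotated, lie before it. Each level is also an average over both diets. The remaining 10 selenoprotein genes, Gpx4 among them, had no line.

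Vimp and Selk, which likewise had no counted codon after the UGA, had 6.98 and 5.96 log2 CPM per kilobase, both above Txnrd1. Of 6 further genes on the list for the Sec machinery, 4 had a line, and these were below Txnrd1. The selenoprotein Sephs2, which makes the Se donor, was above Txnrd1 at 7.60. Sepsecs, the Sec synthase, had 4.65 log2 CPM per kilobase, Eefsec, the elongation factor for Sec, 4.38, Sephs1 3.86 and Secisbp2, which binds the Sec insertion element, 2.26.

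The level of a gene also depends on the isoform whose length divides it. For 7093 of 7260 genes matched by symbol to the annotation (97.7%), an annotated isoform was exactly 60 bases, or 20 codons, longer than the length in the table, so the listed lengths are those of the counted part. Of these 20 codons the methods account for 15 and 3, and the place of the rest is not given in the sources used here. For Txnrd1 the listed 1782 bases plus 60 give 614 codons, which is its longest isoform once read through the UGA, where the annotation of that isoform ends. The other 3 annotated isoforms of Txnrd1 are 500 codons long, 114 fewer, with the UGA again followed by a single codon and the stop codon. With the same CPM divided by their length, the level of Txnrd1 would be 5.50 log2 CPM per kilobase in place of 5.19. Any footprints on codons that these isoforms lack were not removed for this value.

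For Txnrd3 the listed 1899 bases plus 60 give 653 codons, 37 more than the longest annotated isoform (616 codons). The triplet 111 bases ahead of the annotated start codon is CTG, in frame, with 0 stop triplets and 0 ATG triplets between them. The listed length thus equals that of a reading frame from this CTG. Whether ribosomes started there was not tested. For Txnrd2 the listed 1524 bases plus 60 exceed the longest annotated isoform by 9 bases, so no annotated isoform matched.

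**Figure D4:**
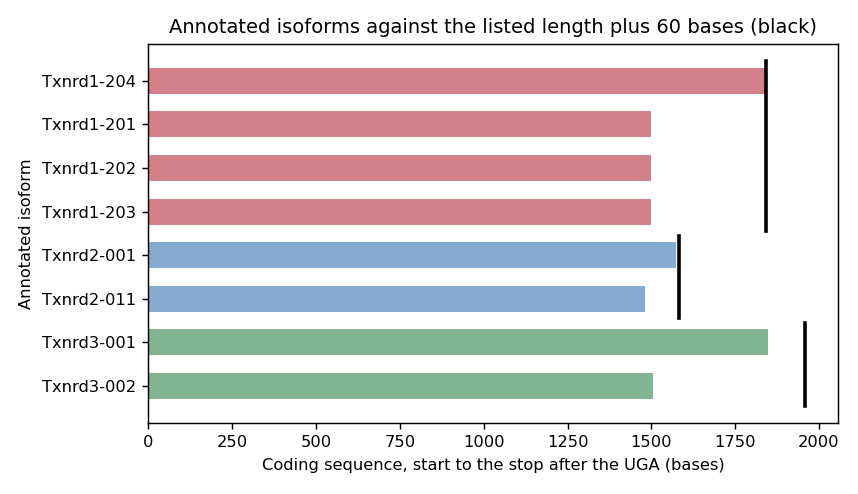
Length in bases of the coding sequence of each annotated isoform that holds the UGA (bars, from the start codon to the stop codon after the UGA), with the listed length plus 60 bases of each gene as a black line. The line meets the longest isoform of Txnrd1 and passes the longest of Txnrd2 by 9 bases and of Txnrd3 by 111 bases.

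Few footprint-sized stretches of Txnrd1 and Txnrd3 occurred in annotated protein-coding transcripts of other genes. Windows of 30 bases were taken from the annotated coding sequence without its first 45 and last 15 bases. Of these, 0 of 1753 in Txnrd1 and 0 of 1759 in Txnrd3 occurred in a protein-coding transcript of another gene. Transcripts of other kinds were not searched. With up to 2 mismatches, as the study's alignment allowed, the shares were 0.513% for Txnrd1 (mainly in Txnrd2) and 0% for Txnrd3.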

How the data were processed

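Footprints from 8 liver libraries (4 mice, 2 per diet) were sequenced. Per the study's methods, the authors trimmed adapters with the FastX toolkit, removed rRNA reads with Bowtie, and counted reads that aligned uniquely, with up to 2 mismatches, to the longest RefSeq isoform per gene (mm9) without the first 15 and last 3 codons. No source used here gives their versions.

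The log2 CPM deposited in 1 table was taken as the authors' edgeR average over all libraries, since its label names no sample. Per the study's methods, genes were kept that exceeded 1 CPM in 3 or more samples. Columns of the table with the authors' own comparison of the diets (log2 fold change, fold change, p-value, adjusted p-value) were not used, and counts per library were not analysed here, so the planned edgeR test between the diets was not run and no test is reported.

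Levels per kilobase are log2 CPM minus log2 of the listed length in kilobases. Isoforms, UGA codons and shared windows came from GENCODE vM1 on mm9, in Python 3.11.15 with Biopython 1.88 for pairwise alignment. Shared windows of Txnrd2 are not reported here. The scripts were tested on simulated sequences. List genes without a line (34, and Gapdh) were searched under all their synonyms in a RefSeq table of assembly GRCm38.p6, used for names alone, and 0 of these 35 was found. The 3 genes and the gene lists were chosen with earlier results of these data known. Named genes are the 3 members, every listed gene of the lists, and the list genes nearest in level.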

Additional observations from a re-analysis of the deposited data

How the results depend on the processing

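The order Txnrd1, Txnrd2, Txnrd3 was the same under every alternative that gave a value for all 3 genes. Filters on other genes cannot change this order, and whether it varies between mice was not tested. With the whole coding length, the levels were 5.14, 3.17 and 1.80 log2 CPM per kilobase for Txnrd1, Txnrd2 and Txnrd3. With the length of the shortest annotated isoform that holds the UGA (chosen after seeing the data) they were 5.50, 3.33 and 2.23. The CPM was left unchanged there, so any footprints outside that isoform were still counted. The share of listed genes at or above each gene was 25.5%, 54.4% and 76.5%. Without division by length it was 17.9%, 52.3% and 70.3%, and among genes of at least 300 coding bases 24.3%, 53.0% and 75.7%. With genes below 3 log2 CPM removed it was 38.2% for Txnrd1 and 77.2% for Txnrd2, because fewer low genes remain, and Txnrd3 was left out. Shared windows stayed at 0% in Txnrd1 and Txnrd3 with 26 and with 36 bases. With up to 2 mismatches (chosen after seeing the data) they made up 0.513% in Txnrd1 and 0% in Txnrd3. The alternative with RefSeq protein lengths, other count tests and filters, and leaving out each mouse were not run. Without values per mouse, no interval can be given for a level. No paired analysis was possible because the diets share no mouse number and no value per mouse was analysed.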
